A study of Homo sapiens with 4 samples.

Results

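The genes described here encode 10 proteins of the complexes that cut nascent pre-mRNA and prepare it for polyadenylation: CPSF1, CPSF2, CPSF3, WDR33 and FIP1L1 of the cleavage and polyadenylation specificity factor (CPSF), CSTF1 and CSTF2 of the cleavage stimulation factor (CstF), NUDT21 and CPSF6 of cleavage factor I (CFI), and PCF11 of cleavage factor II (CFII). They were chosen by name, and all 10 were found among the 13957 genes of the deposited table. RNA-seq had been performed on MDA-MB-231 Fluc cells, a luciferase-carrying derivative of a triple-negative breast cancer line, given either 50 μM cordycepin or the DMSO vehicle for 2 h, with 2 samples in each group. Of that table, the authors' mean expression and gene length were used. The mean is a single log2 value of CPM for each gene, taken over the treated and the vehicle samples together. CPM is the read count scaled to the size of its library, and how that size was set is not stated. The levels below therefore belong to the pooled cultures and give no effect of cordycepin. As there is no value for each library, the depth of each sample is unknown, no SD can be given and no difference between genes was tested. CPM is a share of the reads, so fewer cells and less RNA per cell cannot be told apart from it.

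Almost all mRNAs acquire their 3′ end by a cut in the nascent transcript followed by addition of a poly(A) tail. In the CPSF complex, WDR33 contacts the AAUAAA hexamer upstream of the cut, CPSF3 is the endonuclease, CPSF1 is the scaffold, CPSF2 is a nuclease-like partner of CPSF3, and FIP1L1 recruits poly(A) polymerase. CstF binds U-rich or GU-rich sequence downstream of the cut through CSTF2, with CSTF1 as a WD-repeat subunit. CFI binds UGUA upstream through NUDT21 and is completed by CPSF6 or its relative CPSF7, and the choice between alternative poly(A) sites is sensitive to it. PCF11 contacts the C-terminal domain of RNA polymerase II and takes part in termination. Cordycepin lacks the 3′ hydroxyl group, and its triphosphate terminates poly(A) chains once it is incorporated.

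The transcripts of most of these genes contain the hexamer themselves. In 8 of the 10, the canonical transcript of GENCODE release 44 has AATAAA, written here as DNA, within its last 50 bases, as have 67.1% of the 11603 protein-coding genes of the table. The sites of 7 of these are shown, as examples of the signal, with the hexamer in capitals, 5′ to 3′ on the strand of the gene, from 4 bases before the hexamer to the annotated end or for at most 30 bases. All lie in the last exon, and positions are those of GRCh38. The site of CSTF2 lies beyond the end that the deposited table gives for this gene, 100840932.
NUDT21 (chr16:56429133-56429159, minus strand): tttcAATAAAaaatatttgaaagagaa
CSTF2 (chrX:100841494-100841520, plus strand): atgaAATAAAaacagaaatcaaatgaa
CPSF3 (chr2:9473070-9473099, plus strand): ctaaAATAAAatgcattcgtttctctgggg
CPSF6 (chr12:69274332-69274358, plus strand): tgaaAATAAAacaaacttttgataaga
CPSF2 (chr14:92172121-92172145, plus strand): gtgaAATAAAcagattctgaaggtc
CSTF1 (chr20:56406338-56406362, plus strand): ctgaAATAAActttatatacaatga
PCF11 (chr11:83185769-83185794, plus strand): atgtAATAAAtagaatgatgaagaaa

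The hexamer began 21 bases before the annotated end in CPSF2 and CSTF1, 22 in PCF11, 23 in NUDT21, CSTF2 and CPSF6, 24 in WDR33 and 28 in CPSF3. In the protein-coding genes that have AATAAA in the same window, it began at a median of 23 bases before the end, with quartiles of 21 and 27 bases. Of the 8 genes, CPSF3 was outside these quartiles. The transcripts of CPSF1 and FIP1L1 contained neither AATAAA nor ATTAAA in their last 50 bases. With ATTAAA allowed the count was again 8 of 10, and 82.4% of the protein-coding genes contained at least 1 of these. Only AATAAA and ATTAAA were searched, and only before the annotated end of the canonical transcript. The absence of a match therefore says nothing on how these transcripts end.

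**Figure D1:**
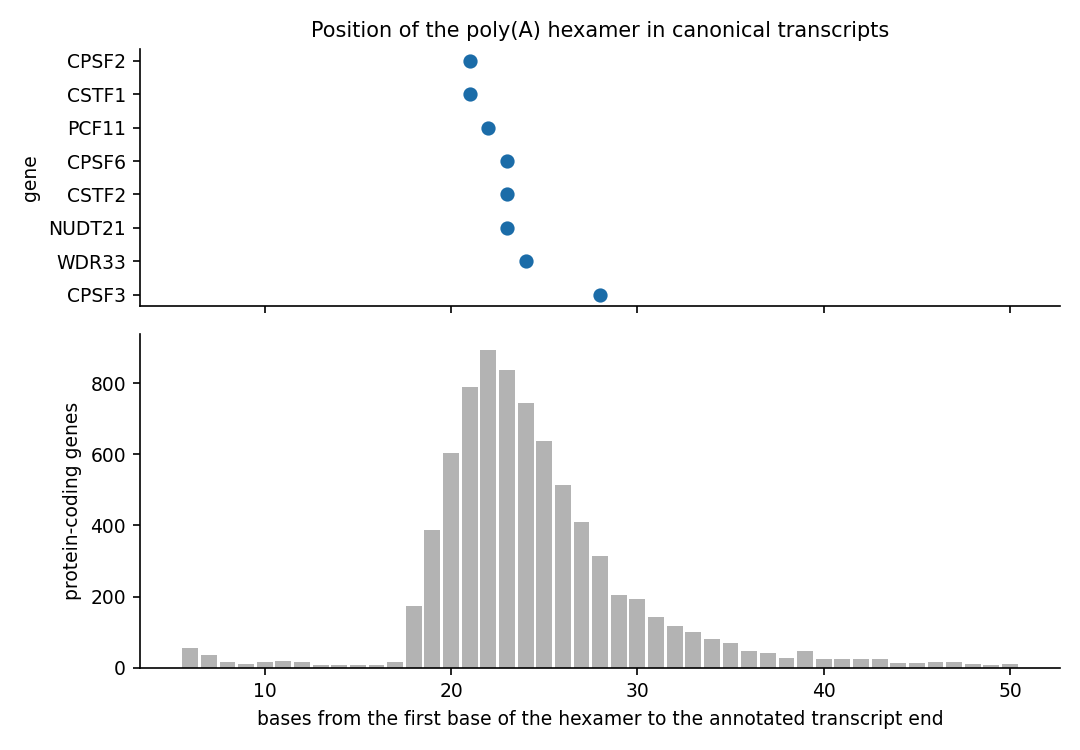
Position of AATAAA in canonical transcripts, as the number of bases from the first base of the hexamer to the annotated end. The upper panel has 1 point for each of the 8 genes with the hexamer, between 21 and 28 bases, and the lower panel counts all protein-coding genes of the table that have it in their last 50 bases, with a median of 23 bases.

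The motifs read by CFI and CstF were looked up in the same way. TGTA, the DNA form of the CFI motif, occurred in the last 100 bases of 6 of the 10 transcripts, once in each of CPSF1, NUDT21, CPSF3, CPSF6, PCF11 and FIP1L1, compared with 56.3% of protein-coding genes. In the 40 bases of genome that follow the annotated end, G and T together made up from 35% of the bases, in CSTF2, to 80%, in CPSF6. The median of the 10 genes was 65% and that of the protein-coding genes was 60%. TTTT was found there in 7 of the 10, the exceptions being CPSF1, CSTF2 and PCF11, compared with 44.8% of protein-coding genes. TGTGT or GTGTG, which overlap each other, was found in CPSF1, NUDT21, CPSF2 and WDR33, compared with 21.2% of protein-coding genes. CSTF2 and PCF11 had none of these downstream motifs. A match is a description of the sequence, and the shares of the 10 genes were not tested against those over all genes.

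The levels of the 10 genes were then compared. Reads of a long transcript outnumber those of a short one at the same number of molecules, so levels were divided by the deposited gene length and are given as CPM per kb of exon. The median of the 10 genes was 3.52 on the log2 scale of CPM per kb, compared with 2.43 for all genes, and 7 of the 10 were above the median gene. With canonical transcript lengths the medians were 3.69 and 3.04, and 6 of the 10 were above. With deposited lengths they ranged from 1.79 for FIP1L1 to 4.93 for CPSF1. This range is 3.14 on the log2 scale, on which all genes of the table, these 10 included, cover 18.4. A range from lowest to highest widens with the number of genes, so these ranges are not alike. The quartiles of all genes were 0.94 and 3.88. In CPM per kb the difference between FIP1L1 and CPSF1 was 8.82-fold. This fold was 7.18 with canonical transcript lengths and 20.4 with the exons of GENCODE release 44, in which FIP1L1 is longer. Reads were not counted again for either, so only the divisor changed. Together they made up 867 CPM.

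Within CPSF, the scaffold gene CPSF1 had the highest level, with 184 CPM and 30.4 CPM per kb, higher than 87.4% of all genes per length. The gene of the endonuclease, CPSF3, had 49.3 CPM and 13.4 CPM per kb, and that of its partner, CPSF2, had 141 CPM and 10.4 CPM per kb. CPSF2 thus had more reads but a lower level per length, its deposited exon length being 13563 bases and that of CPSF3 3686 bases. CPSF3 was 1.29 times as high as CPSF2 with these lengths and 2.01 times as high with canonical transcript lengths. WDR33, the hexamer-binding subunit, had 70.2 CPM over 14575 bases, or 4.82 CPM per kb, higher than 47.0% of genes. FIP1L1 had 19.5 CPM and 3.45 CPM per kb, higher than 38.4% of genes, and was the lowest of the 10 by either measure. The genes of this complex therefore lay on both sides of the median gene, with CPSF1 at 6.32 times the level of WDR33 per length and 2.63 times without division by length.

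In CstF, the RNA-binding subunit gene CSTF2 had 54.9 CPM and 25.1 CPM per kb, higher than 84.6% of genes. CSTF1 had 29.2 CPM and 6.09 CPM per kb, higher than 53.3% of genes. CSTF2 was 4.12 times as high as CSTF1 per deposited length, 2.95 times with canonical transcript lengths and 1.88 times without regard to length. The deposited length of CSTF2, 2187 bases, is shorter than its canonical transcript of 2570 bases. CSTF3, which encodes the subunit that bridges these proteins, had 11.2 CPM per kb. CSTF2T, the autosomal relative of the X-linked CSTF2, had 5.91 CPM per kb. CSTF2 was 4.25 times as high as CSTF2T per deposited length, 3.61 times with canonical transcript lengths and 2.26 times without division by length. No stretch of 75 bases, the length of a read, was shared between the canonical transcript of CSTF2 and a transcript of any other gene in GENCODE.

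In CFI, NUDT21 had 173 CPM and 29.1 CPM per kb, higher than 86.8% of genes and next to CPSF1. CPSF6 had 102 CPM and 12.6 CPM per kb, and its relative CPSF7 had 17.8 CPM per kb. NUDT21, which pairs with either of them, was 2.30 times as high as CPSF6 per deposited length and 1.64 times as high as CPSF7. These ratios were 2.54 and 1.28 with canonical transcript lengths, and 1.70 and 1.61 without division by length. The value of NUDT21 depends on how shared reads were counted. A readthrough gene on the same strand covers 45.9% of its exonic bases, 61.4% of the 75-base stretches of its canonical transcript are also in a transcript of that gene, and that gene is not among those of the deposited table. In CFII, PCF11 had 43.9 CPM and 4.41 CPM per kb, higher than 44.8% of genes, and CLP1, its partner, had 10.7 CPM and 4.87 CPM per kb. PCF11 was at 0.906 of the level of CLP1 per deposited length, 1.20 times as high with canonical transcript lengths and 4.10 times as high without division by length, so the order of these genes turns with the length used.

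**Figure D2:**
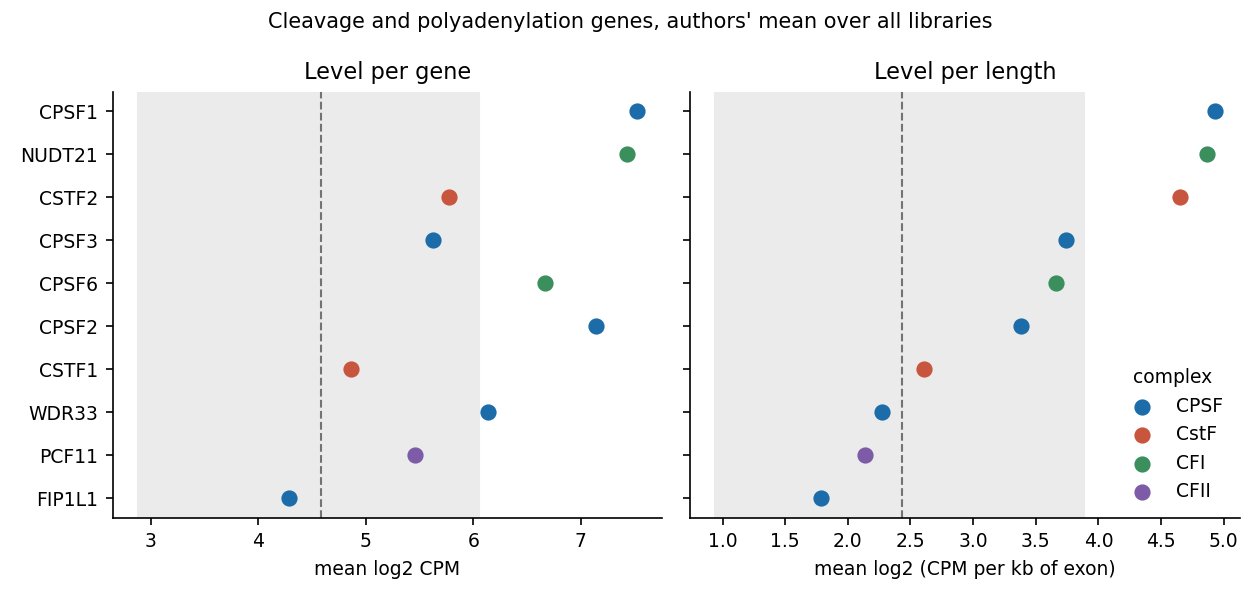
Authors' mean level of the 10 genes over all libraries, as log2 CPM per gene (left) and as log2 CPM per kb of exon (right), with genes ordered by the level per length and coloured by complex. The dashed line is the median of all 13957 genes and the grey band is their middle range, from the lower to the upper quartile. CPSF1 and NUDT21 are highest on both scales and FIP1L1 is lowest, while CPSF2 and WDR33 move down once length is taken into account.

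From highest to lowest per length, the order was CPSF1, NUDT21, CSTF2, CPSF3, CPSF6, CPSF2, CSTF1, WDR33, PCF11 and FIP1L1. With no spread between libraries, no neighbours in this order can be said to differ. Using the length of the canonical transcript, CPSF3 (21.8 CPM per kb) came before CSTF2 (21.3) and WDR33 (7.40) before CSTF1 (7.24). The first and second places and the last were as before. FIP1L1 is the gene whose value moves most with the length used, since its exons cover 5639 bases in the deposited table and 13014 bases in GENCODE release 44. With the latter length its level was 0.58 instead of 1.79 on the log2 scale of CPM per kb, higher than 20.6% of genes. Reads were not counted again on the longer exons, so only the divisor changed. The value is therefore not the level that a count with that annotation would give. CSTF2, likewise without a new count, had 20.0 CPM per kb with the GENCODE length of 2743 bases, compared with the deposited 2187. For the other 8 genes both lengths were equal.

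The genes differ widely in size and structure. On the deposited coordinates of GRCh38, WDR33 (ENSG00000136709) is the longest, on chromosome 2 from 127701027 to 127811187, and its canonical transcript has 22 exons. CPSF3 (ENSG00000119203) is also on chromosome 2, from 9423651 to 9473101, with 18 exons. FIP1L1 (ENSG00000145216), on chromosome 4 from 53377641 to 53460862, has 18 exons in its canonical transcript and 66 annotated transcripts, the most of the 10. CPSF1 (ENSG00000071894), on chromosome 8 from 144393229 to 144409335, has 38 exons within 16107 bases. CPSF2 lies on chromosome 14 (ENSG00000165934, 92121969 to 92172145, 16 exons) and CPSF6 on chromosome 12 (ENSG00000111605, 69239569 to 69274358, 10 exons). NUDT21 lies on chromosome 16 (ENSG00000167005, 56429133 to 56452199, 7 exons) and PCF11 on chromosome 11 (ENSG00000165494, 83156988 to 83187451, 16 exons). CSTF1 is on chromosome 20 (ENSG00000101138, 56392371 to 56406362) and has 6 exons, the fewest of the 10, and CSTF2 is on the X chromosome (ENSG00000101811, 100820359 to 100840932) and has 14.

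Annotated ends also differed in number. Taking ends of complete coding transcripts within 24 bases as the same, NUDT21, CSTF2, CPSF3, CPSF2 and CSTF1 each have 1 annotated end, CPSF1 and PCF11 have 2, CPSF6 and WDR33 have 3, and FIP1L1 has 12. A count per gene does not separate ends, so the table does not tell which end was used in the cells. The ends counted here are those of GENCODE release 44, and the deposited coordinates of CSTF2 and FIP1L1 stop before the gene ends of that release. Exons of other genes on the opposite strand cover 25.7% of the exonic bases of WDR33, 17.0% of those of PCF11 and 14.6% of those of FIP1L1. The libraries were stranded, but whether the counting used strand is not given in the sources used here. Of FIP1L1, 28.4% of the 75-base stretches were shared with a readthrough gene that is not among those of the deposited table.

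Other factors of 3′ end processing had a higher median level. The 15 on the list, all present in the table, had a median of 4.04 on the log2 scale of CPM per kb, and 13 of them were above the median gene. With deposited lengths the highest was PPP1CA, a phosphatase catalytic subunit with many other roles, at 111 CPM per kb. The nuclear poly(A)-binding protein gene PABPN1 followed at 34.9. On the log2 scale of CPM per kb, the genes of the phosphatase part of the machinery were at 4.91 for WDR82, 4.49 for PPP1CB, 4.26 for SSU72 and 3.06 for PPP1R10, which encodes a targeting subunit. The scaffold gene SYMPK had 16.4 CPM per kb, RBBP6 had 5.95, and CPSF4, the zinc finger partner of WDR33, had 12.5. PAPOLA, the main nuclear poly(A) polymerase, had 26.4 CPM per kb, whereas its relative PAPOLG was the lowest of the list at 1.17. The order at the top depends on the length used. With canonical transcript lengths PPP1CA was at 7.69 on the log2 scale, followed by SSU72 at 6.69, PAPOLA at 6.31 and PABPN1 at 6.22. Without division by length PAPOLA was highest with 359 CPM, followed by PPP1CA with 293.

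Compared with other complexes, the 10 genes had a lower median level per length than the subunits of RNA polymerase II. Their median was higher than those of Integrator and of the listed Mediator genes. The medians on the log2 scale of CPM per kb were 4.78 for 12 polymerase genes, 2.96 for 15 Integrator genes and 2.81 for 21 Mediator genes, compared with 3.52 for the 10 genes. With canonical transcript lengths the 10 genes were at 3.69, polymerase at 5.57, Integrator at 3.63 and Mediator at 3.56. Without division by length, the medians on the log2 CPM scale were 5.96 for the 10 genes, 5.73 for polymerase, 5.22 for Integrator and 4.22 for Mediator. The 10 genes were thus above Integrator and Mediator on all of these scales, by distances that varied with the length used, whereas their order with polymerase was turned without division by length. With deposited lengths, polymerase genes ranged from 6.91 CPM per kb for POLR2F to 163 for POLR2L. Integrator genes ranged from 0.752 for INTS6 to 15.0 for INTS1, and Mediator genes from 0.495 for MED17 to 22.0 for MED14. These ranges overlapped, but of the polymerase genes only POLR2D, at 10.3, and POLR2F were below INTS1. The extremes depend on the length used. With canonical transcript lengths, on the log2 scale, POLR2D was the lowest polymerase gene at 3.41. The highest Integrator gene was then INTS11 at 5.71, and the highest Mediator gene MED10 at 5.01. MED26 and MED17, both at 0.69, were the lowest of Mediator. Integrator contains relatives of the nuclease pair of CPSF, and on the log2 scale of CPM per kb INTS11 was at 3.75, close to the 3.74 of CPSF3, and INTS9 at 1.44, compared with 3.38 for CPSF2. With canonical transcript lengths, CPSF3 was at 0.416 of the level of INTS11, so this closeness rests on the choice of length.

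**Figure D3:**
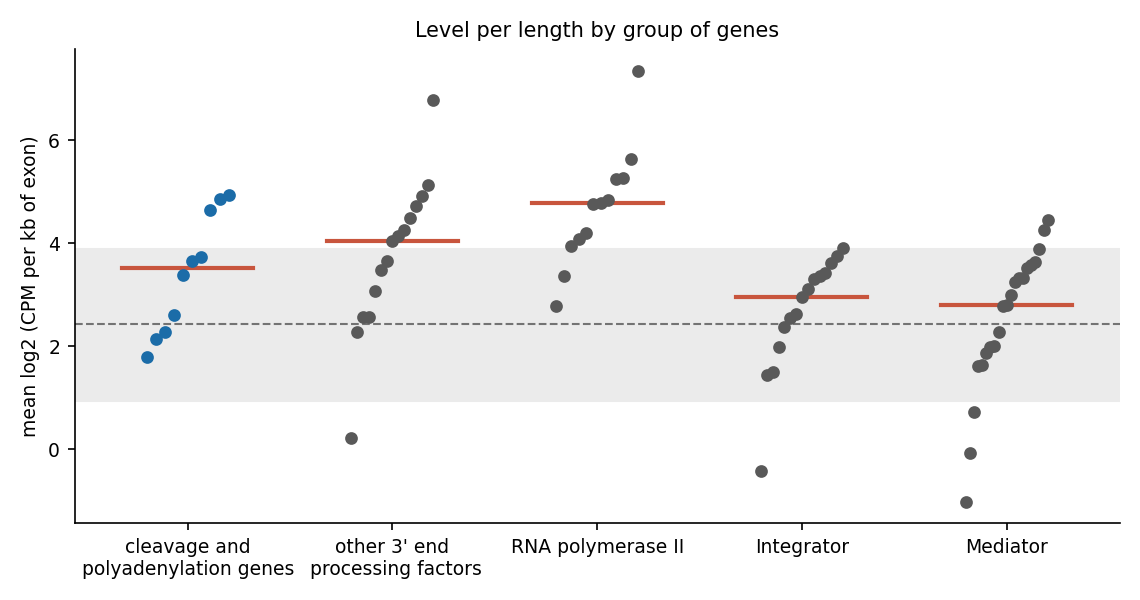
Authors' mean level per length, as log2 CPM per kb of exon, for the 10 cleavage and polyadenylation genes (blue) and the genes of 4 other groups (grey points), each point being a gene. Red bars are group medians, the dashed line is the median of all genes and the grey band their middle range between quartiles; the bar of the 10 genes is at 3.52, below the 4.78 of RNA polymerase II and above the 2.96 of Integrator.

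The table was also checked against the cell line. The 6 mesenchymal markers listed for MDA-MB-231, VIM, CD44, CAV1, AXL, LGALS1 and S100A4, summed to 6620 CPM, with 41.3 CPM for S100A4 and 2058 CPM for AXL as the lowest and highest. Of 7 luminal or epithelial markers, ESR1 and PGR were not among the genes of the table, and ERBB2, CDH1, EPCAM, GATA3 and TFF1 summed to 161 CPM, from 12.8 to 90.1 CPM. The lists overlapped in CPM, since ERBB2 had 90.1 CPM and S100A4 had 41.3. They also overlapped per deposited length, since TFF1 had 46.1 CPM per kb and S100A4 had 43.6.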

How the data were processed

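RNA from 2 cordycepin-treated and 2 vehicle-treated samples was sequenced as stranded, ribo-depleted libraries of 75 bp paired-end reads. The paper's methods name rsubread for counting and GRCh38.p13 as the genome, while the submitters' processing notes name hg38, TopHat, HTSeq, DESeq and Cufflinks; which of these made the table is not given in the sources used here. The deposited table holds, for each gene, the authors' mean log2 CPM over all libraries and a gene length in bases. It also holds the authors' own comparison of cordycepin with DMSO (log2 fold change, F statistic, p-value and adjusted p-value), of which no column was used. It holds 0 columns of values per sample, so the depth is unknown and no test between groups or genes was made. Normalization and the filter on low counts are not stated.

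Levels per length were CPM divided by the deposited length in kb, with no filter and no pseudocount added. Deposited lengths equalled the union of exons of GENCODE release 44 for 10259 of the 13922 genes found there (73.7%). Percentiles are the share of all genes with a lower value. End sequences came from GENCODE canonical transcripts and the GRCh38 genome, and were searched on the transcript strand. The functions were tested on artificial data with known answers. Genes named in the text are the 10 genes, the listed 3′ end factors, and the highest and lowest gene of each complex compared. The highest and lowest were taken with deposited and with canonical transcript lengths. INTS9, INTS11 and the genes that are extreme only with canonical transcript lengths were named after their values were seen. The genes and lists were chosen with earlier results of these data known. INTS15 was matched by gene ID. Alternatives were other lengths with the same deposited CPM, protein-coding genes only, and other windows or hexamers. Calculations used Python 3.11.15, numpy 2.4.6, pandas 2.3.3 and matplotlib 3.10.9. The site sequence of 1 gene and 1 list of markers are not reported here.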

Additional observations from a re-analysis of the deposited data

How the results depend on the processing

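The median level of the 10 genes was 3.52 on the log2 scale of CPM per kb with deposited lengths, 3.69 with canonical transcript lengths and 5.96 as log2 CPM without division by length, and was again 3.52 with the union of GENCODE release 44 exons, an alternative added after the data were seen. Medians over all genes were 2.43, 3.04, 4.58 and 2.39 in the same order. The number of the 10 genes above the median gene was 7 with deposited lengths, among protein-coding genes alone and with GENCODE unions, 6 with canonical transcripts and 9 without division by length. AATAAA was found in 8 of the 10 with windows of 40, 50 and 100 bases, and with ATTAAA allowed. No library could be left out and no paired analysis was possible because the table holds no value for a single library, so the error of each level is unknown.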
